A study of Mus musculus with 8 samples.

Results

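Basement membrane genes were followed in mouse embryonic fibroblasts (MEFs) during early reprogramming. The 10 genes were taken by symbol from the 18990 genes of the deposited table, and are the collagen IV chains *Col4a1*, *Col4a2*, *Col4a5* and *Col4a6*, the laminin chains *Lama1*, *Lama5*, *Lamb1* and *Lamc1*, and the nidogens *Nid1* and *Nid2*. All 10 passed the filter on low values, a mean of at least 1 CPM (reads scaled to a common library total), as did 13866 genes in all. The RNA-seq libraries came from wild-type MEFs of strain BL6 (as labelled), plated at passage 1 and labelled as reprogrammed at passage 2, which carried lentiviruses with the doxycycline-inducible tet-STEMCCA cassette (OCT4, SOX2, KLF4 and c-MYC) and with rtTA, the protein that doxycycline binds to switch the cassette on. The cells received 40 nM of an siRNA pool against *Ncor1* (*siNcor1*) or against *Oct4* (*siOct4*), and RNA was collected at day 3 and at day 6, with 2 libraries in each of the 4 groups. Each knockdown used a pool of 3 siRNAs. All groups shared the medium, which held doxycycline, serum, LIF, the GSK3 inhibitor known as chiron, the TGF-β receptor inhibitor Alk5i and ascorbic acid, a cofactor of the enzymes that hydroxylate collagen. Libraries of a non-targeting control were not analysed here, so each value compares the knockdowns with each other or the days with each other. The labels call the replicates biological but do not say whether they came from separate animals or cultures, so the p-values measure the spread between these libraries.

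A basement membrane is a thin sheet of extracellular matrix under epithelia and around muscle, fat and nerve cells. Collagen IV is secreted as a trimer, of which α1α1α2 is the widespread form and α5α5α6 a more restricted one. Laminins are trimers of an α, a β and a γ chain: α1 (*Lama1*) marks early embryonic membranes, α5 (*Lama5*) takes over in most mature epithelia, and both pair with β1 (*Lamb1*) and γ1 (*Lamc1*). Nidogens bridge the laminin and collagen IV networks. Fibroblasts make many of these proteins, and epithelial cells rest on them, so the question here is how their genes stood while the cells gained epithelial genes between day 3 and day 6 of a mesenchymal-to-epithelial transition.

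The 8 libraries held between 7735742 and 16445192 reads on genes, and a single member was covered by 32 to 19189 reads in a library. A long non-coding RNA, *Gm26917*, took 15.5% to 16.6% of the reads at day 3 and 20.3% to 29.1% at day 6. The siRNA targets followed their labels in part. *Ncor1* stood at 135 to 146 CPM in *siNcor1* and 226 to 245 CPM in *siOct4* at day 3, but at 153 to 156 and 140.3 to 160.4 CPM at day 6. *Pou5f1*, the gene of OCT4, whose reads from the cassette and from the endogenous gene are counted together, did not pass the test at day 3 (197 to 205 CPM in *siNcor1*, 185 to 196.9 CPM in *siOct4*, limma adjusted p = 0.941) and was 3.42-fold higher in the libraries labelled *siOct4* at day 6 (501 to 700.1 CPM against 159.7 to 187 CPM). Those libraries are therefore called by their label throughout, and *siOct4* below stands for that label. From a separate time course, the paper reports that *Oct4* mRNA was efficiently silenced earlier in reprogramming and soon recovered. It also reports a strong phenotype despite this transient knockdown. The levels given here come from later days, so they do not show whether the knockdown had worked before them.

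*Col4a1* (chr8:11198423-11312826, minus strand) and *Col4a2* (chr8:11312805-11449287, plus strand) lie head to head on GRCm38 (mm10), and their annotated starts in GENCODE M21 overlap by 22 bases. *Col4a6* (chrX:141165403-141474076, minus strand) and *Col4a5* (chrX:141475385-141689234, plus strand) form the other head-to-head pair, with 1308 bases between their starts. The other members stand alone: *Lama1* at chr17:67697259-67822647 (plus), *Lama5* at chr2:180176373-180225859 (minus), *Lamb1* at chr12:31265234-31329644 (plus), *Lamc1* at chr1:153218922-153332786 (minus), *Nid1* at chr13:13437551-13512269 (plus) and *Nid2* at chr14:19751265-19811787 (plus). The authors' counting is not stated to use strand, so reads of *Col4a1*, *Col4a2* and *Nid1* may include those of the antisense genes *Gm15418*, *Gm15419* and *Gm48682*, and those of *Nid2* some of *Rtraf* on the opposite strand. Promoter windows around the gene start were given by RefSeq (GRCm38.p6) for 7 members and not for *Lama1*, *Lamc1* and *Nid2*. Sequences are printed for the bases the *Col4a1* and *Col4a2* starts share, for the pair *Col4a5* and *Col4a6*, which moved together, and for *Lama5* and *Nid1*, the members that rose with time in *siNcor1*. Each runs 5′ to 3′. The shared piece, on the plus strand, lies within the annotated bounds of both genes, and the others, on the gene's strand, cover the bases of the window ahead of the start in both annotations, with GGGCGG (the GC box that Sp1-type factors bind) and CCAAT in capitals on either strand.
*Col4a1* and *Col4a2* shared start, chr8:11312805-11312826: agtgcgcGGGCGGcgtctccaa
*Col4a5*, chrX:141475169-141475369: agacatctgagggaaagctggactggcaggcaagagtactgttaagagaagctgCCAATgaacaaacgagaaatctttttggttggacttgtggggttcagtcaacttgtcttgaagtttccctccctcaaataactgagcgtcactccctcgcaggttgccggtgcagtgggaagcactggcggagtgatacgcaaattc
*Col4a6*, chrX:141474096-141474326: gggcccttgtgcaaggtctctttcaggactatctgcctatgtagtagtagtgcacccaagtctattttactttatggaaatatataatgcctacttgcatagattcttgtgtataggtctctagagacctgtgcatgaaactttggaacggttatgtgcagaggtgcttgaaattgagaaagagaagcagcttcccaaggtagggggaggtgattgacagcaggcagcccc
*Lama5*, chr2:180225905-180226109: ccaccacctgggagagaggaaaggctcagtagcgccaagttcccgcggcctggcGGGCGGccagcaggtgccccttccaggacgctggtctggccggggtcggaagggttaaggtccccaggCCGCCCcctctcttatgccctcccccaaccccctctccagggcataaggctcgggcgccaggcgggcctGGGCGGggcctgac
*Nid1*, chr13:13437352-13437550: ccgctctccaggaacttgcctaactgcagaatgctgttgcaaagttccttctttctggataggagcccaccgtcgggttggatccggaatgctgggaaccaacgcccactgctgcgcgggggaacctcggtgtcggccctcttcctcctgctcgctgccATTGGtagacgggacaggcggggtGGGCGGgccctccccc

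Over the full windows, GGGCGG on either strand was present in 7 of the 7 member promoters and in 35.7% of the 32851 promoters of the table. CCAAT was present in 5 of 7, against 37.4% of all promoters. TGANTCA, the AP-1-type element, was present in 0 of 7, against 7.81%. The *Col4a1* and *Col4a2* windows overlap and so share letters. A match describes these letters and not a bound site.

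Levels between genes were compared as CPM per kilobase of exon (RPKM), with the length of all annotated exons of a gene. In *siNcor1* at day 3 the widespread collagen IV chains led, with 130.4 ± 4.79 RPKM (SD, n = 2) for *Col4a1* and 123 ± 6.50 for *Col4a2*, and their libraries overlapped. *Nid1* followed at 93.2 ± 8.94, then *Lamc1* at 51.6 ± 2.98. The next neighbours, *Lamb1* (38.0 ± 1.97) and *Nid2* (37.0 ± 4.74), overlapped, as did *Lama1* (12.2 ± 1.52) and *Lama5* (11.9 ± 2.47), with *Col4a5* (25.2 ± 2.37) between these pairs. *Col4a6*, the chain that enters the α5α5α6 trimer once, was the lowest, at 2.10 ± 0.112 RPKM. In the libraries labelled *siOct4* at day 3 the same 3 genes led, *Col4a1* at 199.8 ± 36.3, *Col4a2* at 192 ± 34.5 and *Nid1* at 155 ± 25.8 RPKM, and the libraries of *Col4a2* overlapped those of each of the other two.

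At day 6 *Nid1* stood first in both knockdowns, at 147 ± 6.77 RPKM in *siNcor1* and 86.2 ± 4.99 in *siOct4*, and its libraries did not overlap those of *Col4a1* (109 ± 2.16 and 68.4 ± 0.116) below it. *Lama5* had moved from a tie with *Lama1* to well above it in *siNcor1*, with 24.0 ± 1.05 against 8.07 ± 1.35 RPKM. In *siOct4* the gap was smaller, 13.6 ± 3.78 against 7.51 ± 0.375, and the lower members, *Nid2* (8.93 ± 1.70), *Lama1* and *Col4a5* (7.43 ± 0.291), each overlapped their neighbour. *Col4a6* was last in every group and fell to 0.941 ± 0.1002 RPKM in *siNcor1* and 0.563 ± 0.197 in *siOct4*.

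**Figure D1:**
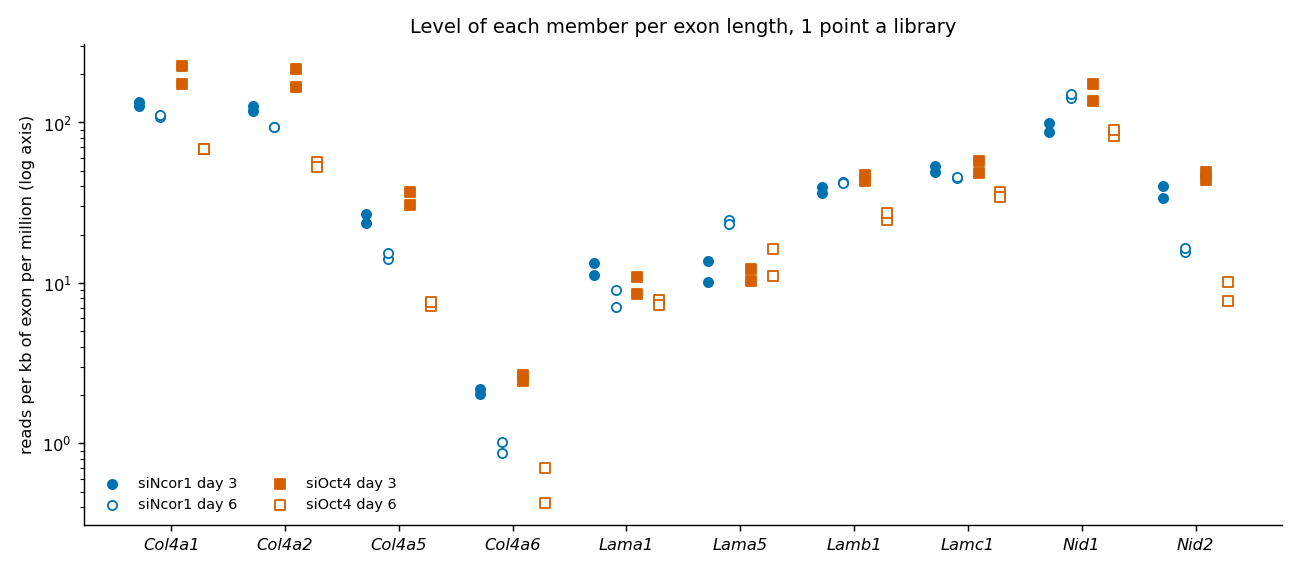
RPKM, that is CPM per kilobase of exon (log axis), of the 10 genes, with 1 point for each of the 8 libraries; circles are siNcor1, squares the libraries labelled siOct4, filled points day 3 and open points day 6. *Col4a6* lies lowest in every group, and *Nid1* lies above *Col4a1* at day 6 in both knockdowns.

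Between day 3 and day 6 in *siNcor1*, the basement membrane genes split. *Lama5* and *Nid1* rose, *Nid2*, *Col4a6*, *Col4a5* and *Lama1* fell, and the chains of the widespread collagen IV and of laminin β1 and γ1 did not pass the test. By limma over all genes with Benjamini-Hochberg adjustment at 0.05, 2 of 10 were higher and 4 of 10 lower. Of all genes tested, 34.8% were called (13.8% higher, 20.9% lower). The members were chosen with earlier results of these data known, so their count beside these shares is a description. Their median log2 fold change was −0.32, beside −0.068 over all genes tested. These are bulk libraries, in which fewer cells of a type and less RNA per cell cannot be told apart.

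Among the collagen IV chains, *Col4a1* measured 998 and 948 CPM in *siNcor1* at day 3 and 804 and 827 at day 6. *Col4a2* measured 842 and 781 CPM, then 621.6 and 621.7. Both were lower in each day 6 library than in either day 3 library, by 0.25 (95% interval of the change −0.58 to 0.075) and 0.38 (−0.71 to −0.060) on the log2 scale, which missed the threshold (adjusted p = 0.216 and 0.0636). *Col4a5* measured 180.4 and 158 CPM at day 3 and 95.2 and 104 at day 6, a decrease by 0.76 ± 0.13 (SE; adjusted p = 0.00114). *Col4a6* measured 17.4 and 16.1 CPM, then 6.94 and 8.07, which was 2.22-fold lower (log2 fold change −1.15 ± 0.22, adjusted p = 0.00255). The chains of the α5α5α6 trimer thus fell in these libraries. *Col4a2* passed the test when any 1 library labelled *siOct4* was left out (adjusted p between 0.0425 and 0.0452), when only the *siNcor1* groups were fitted (0.0162), with voom (0.0469) and under quantile normalization (0.0274), where *Col4a1* passed too (0.0488).

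The laminin α chains moved in opposite directions. *Lama1*, the early embryonic chain, measured 108 and 129 CPM at day 3 and 87.4 and 68.9 at day 6. It fell by 0.60 ± 0.16 (adjusted p = 0.0120), a call that was lost without *siNcor1* day 3 replicate 2 (0.125), without *siNcor1* day 6 replicate 2 (0.126) and under quantile normalization (0.0746). *Lama5*, the chain of mature epithelia, measured 155 and 115 CPM at day 3 and 282 and 265 at day 6, 2.04-fold higher (log2 fold change 1.03 ± 0.19, adjusted p = 0.00187). Their partners differed less between the days. *Lamb1* measured 390.5 and 363 CPM, then 423 and 416, and *Lamc1* 444 and 409 CPM, then 375 and 377. The intervals of their changes were −0.11 to 0.42 and −0.46 to 0.099 on the log2 scale.

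The nidogens also diverged. *Nid1* measured 691 and 603 CPM at day 3 and 986 and 1053 at day 6, 1.58-fold higher (log2 fold change 0.66 ± 0.15, adjusted p = 0.00659), which was lost without *siNcor1* day 3 replicate 2 (0.0812) or *siNcor1* day 6 replicate 2 (0.0576). *Nid2* measured 209 and 174 CPM, then 80.5 and 85.0. It was 2.30-fold lower (−1.20 ± 0.15, adjusted p = 1.70e-04), the largest decrease of the 10. For all 10 genes the libraries of the days did not overlap, 3 higher and 7 lower at day 6, against 31.4% and 41.7% of all genes tested.

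**Figure D2:**
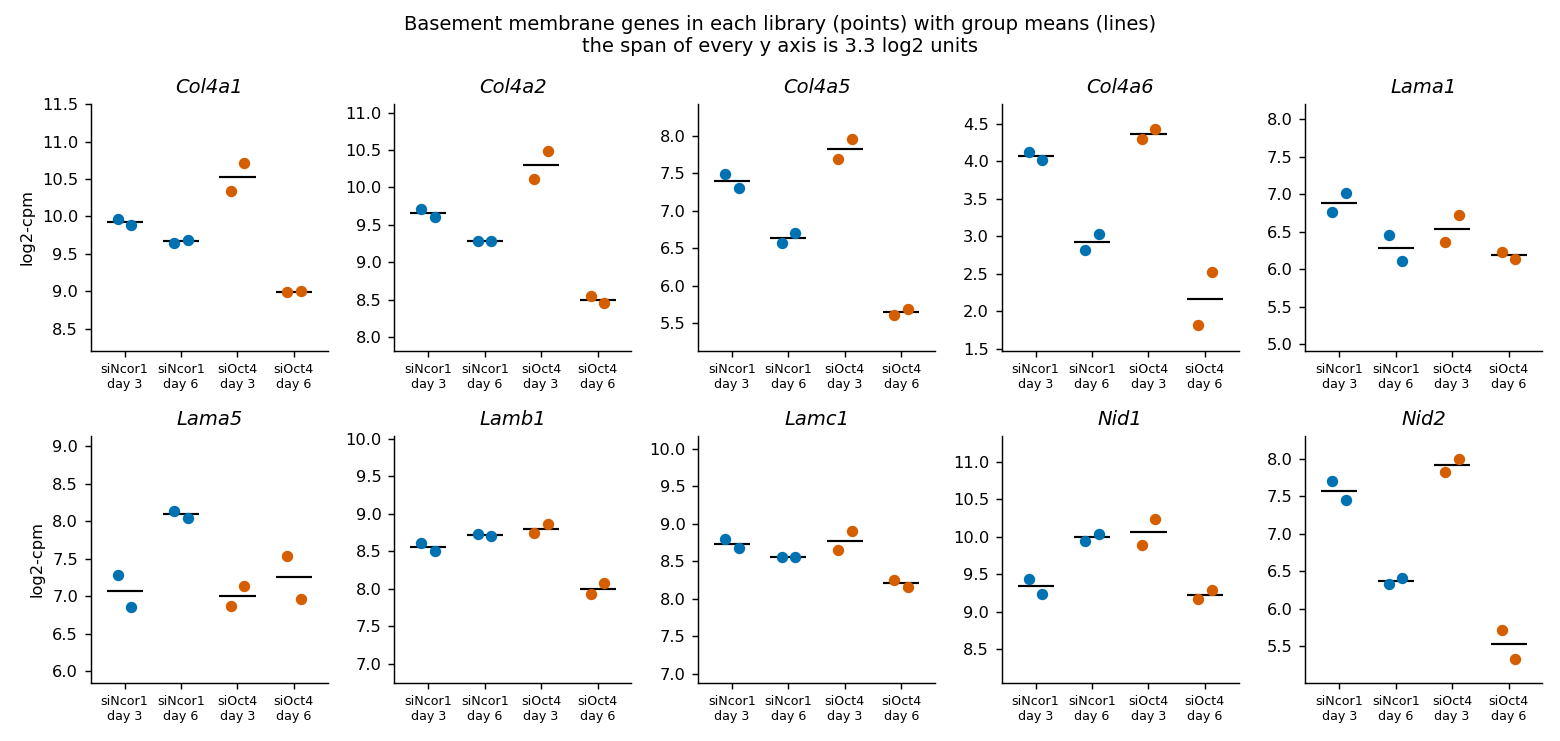
Log2-cpm of the 10 genes in the 4 groups, with 1 point a library and a line at the mean of the 2 libraries; the y axes start at different levels but all span the same number of log2 units. *Nid1* and *Lama5* rise from day 3 to day 6 in siNcor1, and all but *Lama1* and *Lama5* passed the test as lower at day 6 in the libraries labelled siOct4.

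Epithelial genes rose over the same days. Of 34 on the list, 33 were tested (*Ovol1* was not); 29 were higher and 1 was lower at day 6 in *siNcor1*, with a median log2 fold change of 2.65. E-cadherin (*Cdh1*) was 4.71-fold higher (2.24 ± 0.13, adjusted p = 1.60e-06), *Epcam* 9.25-fold, and the simple-epithelium keratins *Krt8* and *Krt18* 32.3-fold and 43.9-fold. *Esrp1*, the epithelial splicing regulator, was 8.25-fold higher, the tight-junction gene *Cldn4* 74.5-fold and the transcription factor *Grhl2* 24.5-fold. At day 3 *Grhl2* had 4 reads in each *siNcor1* library and *Cldn4* 15 and 8, so the size of these folds depends on the constant added before the logarithm. *Dsp*, which encodes desmoplakin, was the 1 that fell (−0.50 ± 0.15, adjusted p = 0.0217). The rise of *Lama5*, by 1.03, was thus below the list's median gain, and 8 of the 10 basement membrane genes did not pass as higher. No test of list against list was run.

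In the libraries labelled *siOct4*, 8 of the 10 basement membrane genes fell from day 3 to day 6, while epithelial genes rose there too. The decreases were largest for *Nid2*, the restricted collagen IV chains and the widespread ones, in that order. Of all genes tested, 52.7% were called in this comparison and 30.5% were lower. The members' 8 of 10 lower is set beside that high share as a description, since they were chosen with earlier results known. Of the calls over all genes 42.1% were higher, and 52.6% with library totals taken without *Gm26917*, which also leave out the scaling factors of the deposited values. The members' median log2 fold change was −1.19, against −0.079 over all genes tested. *Lama1* and *Lama5* were the members that did not pass. The count of members that rose was 0 by limma, 0 at an unadjusted p under 0.05 and 0 by voom.

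*Col4a1* measured 1299.9 and 1683 CPM at day 3 and 510.2 and 511 at day 6 in these libraries, 2.90-fold lower (log2 fold change −1.53 ± 0.15, adjusted p = 9.92e-06). Its partner *Col4a2* measured 1106 and 1429 CPM, then 373 and 351, 3.47-fold lower (−1.80 ± 0.15, adjusted p = 3.05e-06). *Col4a5* measured 207 and 248 CPM, then 48.5 and 51.3, 4.53-fold lower (−2.18 ± 0.13, adjusted p = 3.07e-07). *Col4a6*, its partner, was at the low end of the table at day 6: 19.5 and 21.4 CPM became 3.38 and 5.60, which rest on 32 and 66 reads. It was 4.58-fold lower (−2.19 ± 0.22, adjusted p = 1.32e-05). All 4 chains fell, and the larger decreases were those of the α5α5α6 chains.

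Of the laminin chains, *Lamb1* measured 428 and 465 CPM at day 3 and 244 and 269.6 at day 6, and fell by 0.80 ± 0.12 (adjusted p = 2.06e-04). *Lamc1* measured 401 and 477 CPM, then 305 and 285, and fell by 0.57 ± 0.13 (adjusted p = 0.00293). The α chains, which tell laminin isoforms apart, did not pass. *Lama1* measured 82.0 and 105 CPM, then 75.2 and 70.1 (log2 fold change −0.36, interval −0.70 to −0.0090, adjusted p = 0.0788). *Lama5* measured 117 and 140.0 CPM, then 186 and 125, so the days overlapped (0.25, interval −0.16 to 0.67, adjusted p = 0.284). These calls rested on single libraries: without *siOct4* day 6 replicate 2 *Lama5* was higher by 0.54 (adjusted p = 0.0184), without *siOct4* day 6 replicate 1 its value was −0.034, and without *siOct4* day 3 replicate 1 *Lama1* fell by 0.54 (adjusted p = 0.0360).

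The nidogens both fell here. *Nid1* measured 951 and 1205 CPM at day 3 and 574 and 623 at day 6, 1.79-fold lower (log2 fold change −0.84 ± 0.15, adjusted p = 7.46e-04). *Nid2* measured 227 and 255 CPM, then 52.4 and 40.0, 5.24-fold lower (−2.39 ± 0.15, adjusted p = 4.21e-07). The day 6 libraries lay below both day 3 libraries for 9 of the 10 genes and overlapped for *Lama5*, where 42.1% of all genes tested were lower without overlap.

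Epithelial genes in these libraries were higher for 27 of 33 and lower for 1, the plakoglobin gene *Jup* (−1.09 ± 0.14, adjusted p = 8.33e-05), with a median log2 fold change of 2.77. *Cdh1* was 11.9-fold higher, *Epcam* 23.5-fold, *Krt8* 54.3-fold, *Krt18* 4.64-fold, *Esrp1* 33.1-fold, *Cldn4* 26.3-fold and *Grhl2* 19.2-fold. The day 3 levels behind the *Cldn4*, *Grhl2* and *Esrp1* folds were 2 and 1, 2 and 0, and 5 and 5 reads. Those folds therefore depend on the small constant in the log2 values. The epithelial gain was thus seen in both knockdowns, and the basement membrane genes that passed as higher, *Lama5* and *Nid1*, did so in *siNcor1*. Their day changes differed between the knockdowns by limma for *Nid1* (adjusted p = 0.00126), which missed the threshold for *Lama5* (0.0600).

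Fibroblast markers moved beside these results. The summed level of all 8 (*Col1a1*, *Col1a2*, *Col3a1*, *Thy1*, *Pdgfrb*, *Postn*, *Dcn* and *Lum*) was 6179 to 6306 CPM in *siNcor1* at day 3 and 4386 to 4757 at day 6. In the libraries labelled *siOct4* it was 8724 to 10278 CPM at day 3 and 2437 to 2587 at day 6, the order in which the summed level of the 10 members also ran (3696 to 4035, 3762 to 3825, 4838 to 6029 and 2332 to 2372 CPM), except that the members' sums in *siNcor1* overlapped between the days. The markers did not move as one: from day 3 to day 6, 4 of 8 rose and 2 fell in *siNcor1*, 2 rose and 5 fell in *siOct4*, and *Dcn* and *Lum*, small proteoglycans of collagen fibrils, rose in both. The part of fibroblast content in the results was not tested.

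Markers of other cell types were counted in the same libraries. Of the 13 markers of parietal and primitive endoderm, 10 were in the table, with sums of 124 to 138 and 137 to 138 CPM in *siNcor1* at day 3 and day 6 and of 150.4 to 153 and 89.9 to 92.5 CPM in *siOct4*. Among them *Thbd* had 372 to 1098 reads and *Dab2* 163 to 658 reads a library, and *Sox17* had no read at day 3 in any library. From day 3 to day 6, 2 of 9 tested rose and 2 fell in *siNcor1*, and 2 rose and 5 fell in *siOct4*. Of all genes tested, 13.8% rose and 20.9% fell in *siNcor1*, and 22.2% and 30.5% in *siOct4*. Endothelial markers (5 of 7 in the table) summed to 40.8 to 44.4 and 16.4 to 20.9 CPM in *siNcor1* and to 41.8 to 42.0 and 16.7 CPM in *siOct4*. The only 1 of them tested, *Tek*, fell in both knockdowns, and *Emcn* had no read at day 6. Muscle markers (2 of 5 in the table, *Des* and *Actc1*) summed to 14.2 to 86.8 CPM over all libraries, with 1 lower in *siNcor1* and both lower in *siOct4* at day 6. Macrophage markers (4 of 5 in the table) summed to 6.26 to 12.8 CPM; of 3 tested, 1 rose in *siNcor1*, and 2 rose and 1 fell in *siOct4*. The part of these cells in the results was not tested.

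**Figure D3:**
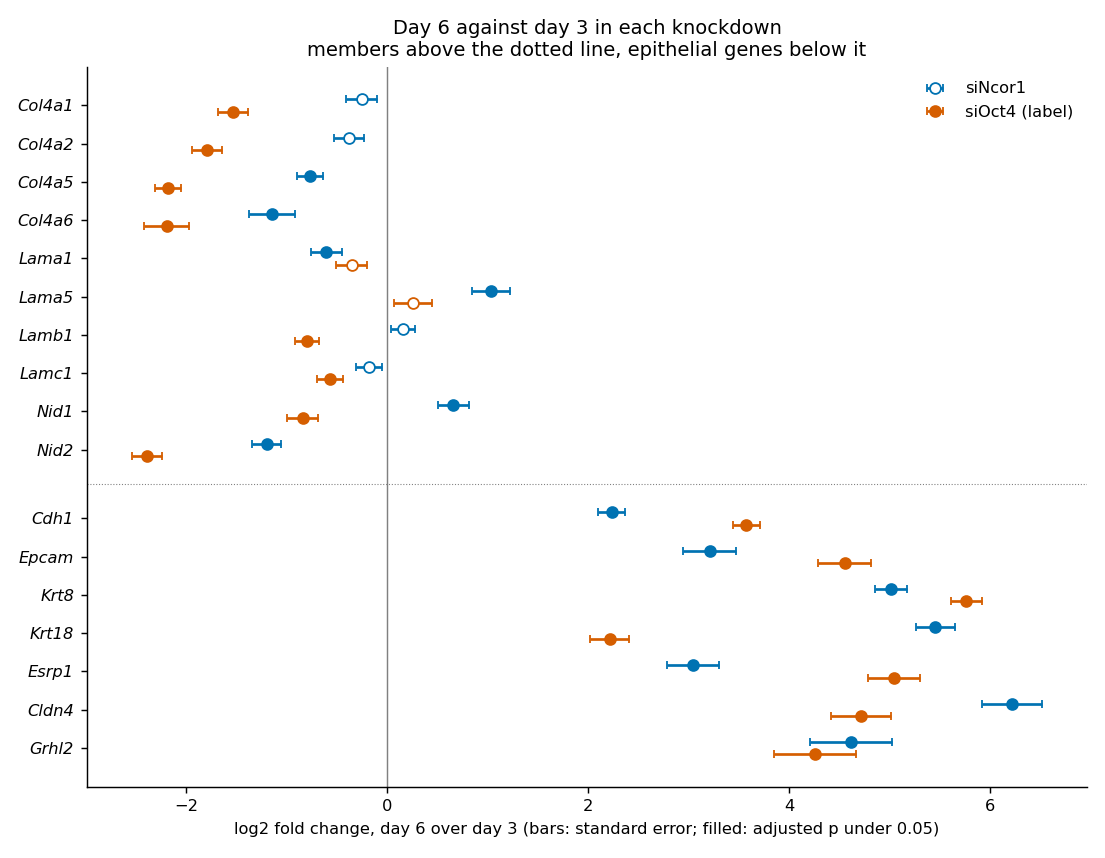
Log2 fold change from day 3 to day 6 in each knockdown (siOct4 by its label), with bars of 1 standard error and filled points where the adjusted p (limma) is under 0.05. The 10 basement membrane genes, above the dotted line, lie between −2.39 and 1.03, and the 7 epithelial genes below it between 2.22 and 6.22.

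At day 3, the libraries labelled *siOct4* stood at or above *siNcor1* for most basement membrane genes, but only *Nid1* passed the test. It was 1.66-fold higher (log2 fold change 0.73 ± 0.15, adjusted p = 0.0474), 1 of 10 members where 1.07% of all genes tested were called and 0.375% were higher. The count of members called lower was 0 by limma (0.692% of all genes), at an unadjusted p under 0.05 and by voom. That call was fragile. It was lost without either *siNcor1* day 3 library (adjusted p = 0.160 and 0.501 without replicates 1 and 2), either *siOct4* day 3 library (0.0607 and 0.378) or either *siNcor1* day 6 library (0.0993 and 0.0981), and with no filter (0.0760), no trend (0.135), a mean of at least 10 CPM (0.0554), a pseudocount of 1 (0.0508) or only the groups compared (0.0505).

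*Col4a1* and *Col4a2*, the widespread collagen IV chains, were higher by 0.60 ± 0.15 and 0.63 ± 0.15, with adjusted p of 0.0913 and 0.0698. Both passed when *siOct4* day 6 replicate 1 (0.0468 and 0.0315) or replicate 2 (0.0480 and 0.0325) was left out. *Col4a5* differed by 0.42 ± 0.13 (adjusted p = 0.188), *Nid2* by 0.34 ± 0.15 (0.443), *Col4a6* by 0.28 ± 0.22 (0.785) and *Lamb1* by 0.24 ± 0.12 (0.528). *Lama1* was on the other side, at −0.35 ± 0.16 (0.478). The value of *Lama5* (−0.066, interval −0.48 to 0.35) turned to 0.15 without *siNcor1* day 3 replicate 1 and 0.066 without *siOct4* day 3 replicate 1. That of *Lamc1* (0.036, interval −0.24 to 0.32) turned to −0.0231 without *siNcor1* day 3 replicate 2 and −0.090 without *siOct4* day 3 replicate 2. The libraries did not overlap for 7 members that were higher and for *Lama1*, which was lower, against 20.7% and 22.7% of all genes tested. The median over the 10 was 0.31, against −0.021 over all genes.

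At day 3 the epithelial genes stood the other way. In the libraries labelled *siOct4*, 10 of the 33 tested were lower and 0 were higher (0 at an unadjusted p under 0.05, 0 by voom), with a median log2 fold change of −0.86. *Cdh1* was 4.05-fold lower (−2.02 ± 0.13, adjusted p = 6.11e-05), *Epcam* 4.21-fold, *Esrp1* 3.99-fold, *Krt8* 3.21-fold and *Cldn4* 2.99-fold. At this day the *siOct4* libraries held 5 and 5 reads of *Esrp1* and 2 and 1 of *Cldn4*. The size of those folds thus depends on the constant in the log2 values. *Krt18* (0.16 ± 0.19, adjusted p = 0.888) and *Grhl2* (−0.97 ± 0.41, 0.414) did not pass. Of the fibroblast markers 0 of 8 passed by limma, 5 were higher at an unadjusted p under 0.05 and 2 by voom, and 8 of 8 had positive values with a median of 0.43.

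At day 6 the direction had turned: 8 of the 10 basement membrane genes were lower with the *siOct4* label, and 0 were higher by limma, at an unadjusted p under 0.05 or by voom. Of all genes tested, 30.7% were called and 18.6% were lower. The decreases called ran from 0.67 to 0.99 on the log2 scale. The median log2 difference was −0.77 for the collagen IV chains, −0.81 for the nidogens, −0.47 for the laminin α chains and −0.53 for laminin β1 and γ1, and that of all 10 members was −0.77 against −0.025 over all genes. The libraries did not overlap for 9 members, all lower, and overlapped for *Lama1*, against 34.8% of all genes lower without overlap.

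All 4 collagen IV chains were lower at day 6. *Col4a5* was 1.99-fold lower (−0.99 ± 0.13, adjusted p = 4.93e-04), *Col4a2* 1.72-fold (−0.78 ± 0.15, 0.00301), *Col4a6* 1.70-fold (−0.76 ± 0.22, 0.0242) and *Col4a1* 1.60-fold (−0.67 ± 0.15, 0.00689). Of the laminin chains, *Lama5* was 1.79-fold lower (−0.84 ± 0.19, 0.00709) and *Lamb1* 1.64-fold (−0.71 ± 0.12, 0.00178). *Lamc1* just missed (−0.35 ± 0.13, adjusted p = 0.0568), and *Lama1* did not pass (−0.096, interval −0.44 to 0.25), with a value of 0.075 without *siNcor1* day 6 replicate 1. *Nid2* and *Nid1* were 1.80-fold (−0.85 ± 0.15, 0.00197) and 1.70-fold lower (−0.77 ± 0.15, 0.00386). Without *siNcor1* day 6 replicate 2 the count was 5 of 10, since *Col4a1* (0.0682), *Nid1* (0.05001) and *Col4a6* (0.163) no longer passed. *Col4a6* was also lost without *siNcor1* day 6 replicate 1 (0.0540), without *siOct4* day 6 replicate 1 (−0.41, 0.127), without the trend (0.0518) and with only the groups compared (0.0869), and *Lamc1* passed with a mean of at least 10 CPM (0.0497).

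Epithelial genes were lower as well at day 6, 19 of 33, with a median of −0.69. By limma 0 were higher, as by voom, and 4 were at an unadjusted p under 0.05. *Krt18* was 8.47-fold and *Cldn4* 8.46-fold lower, *Krt8* 1.91-fold and *Cdh1* 1.60-fold, and *Grhl2* had a log2 fold change of −1.32 ± 0.41 (adjusted p = 0.0304). *Epcam* (−0.73 ± 0.26, adjusted p = 0.0541) and *Esrp1* (0.0080 ± 0.26, 0.984) did not pass. Fibroblast markers were lower for 5 of 8 (*Col1a1*, *Pdgfrb*, *Col1a2*, *Col3a1* and *Thy1*) with a median of −0.75, and the count of higher ones was 0 by limma, at an unadjusted p under 0.05 and by voom. The medians of the basement membrane, epithelial and fibroblast lists were therefore all negative at this day, and the part of fibroblast content in the members' difference was not tested.

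**Figure D4:**
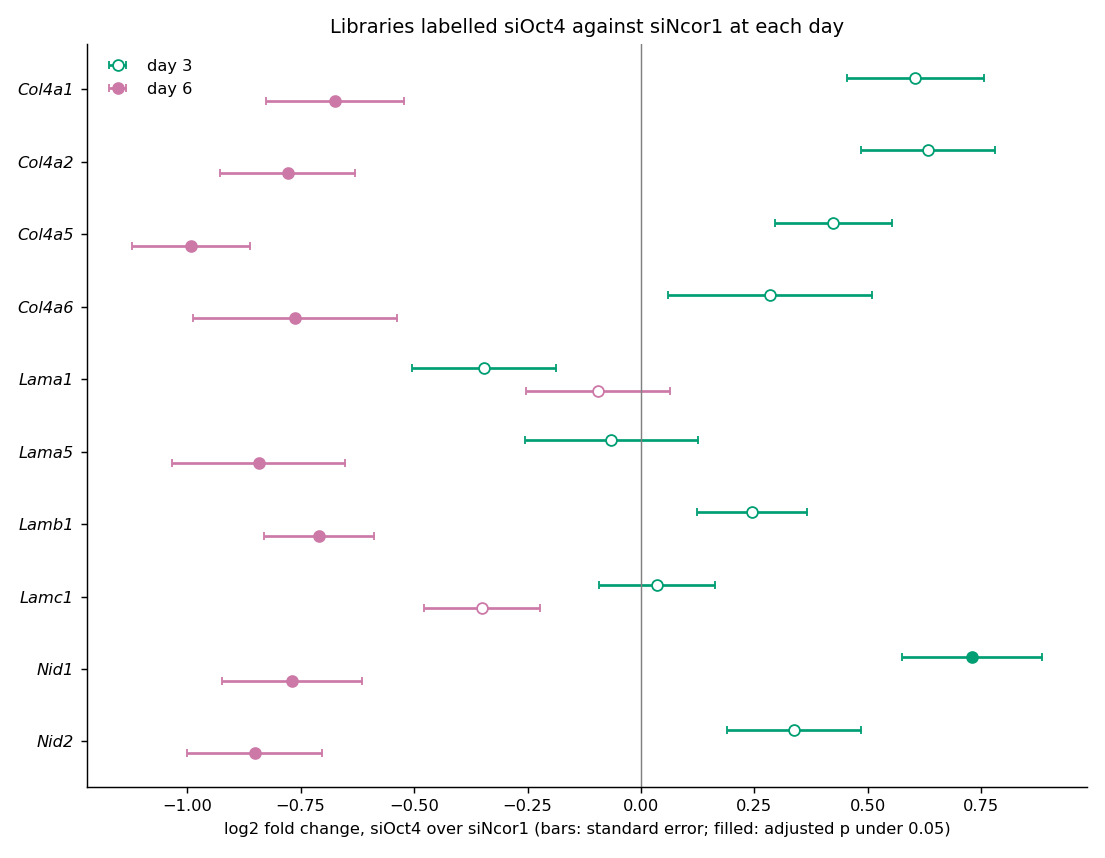
Log2 fold change of the libraries labelled siOct4 over siNcor1 at day 3 and at day 6 for the 10 genes, with bars of 1 standard error and filled points where the adjusted p (limma) is under 0.05. *Nid1* is the only filled point at day 3, and 8 genes are filled and lower at day 6.

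The change of the knockdown difference from day 3 to day 6, tested as an interaction of all 4 groups, was below 0 for 9 of the 10 genes and passed the test for 7 of them, where 20.7% of all genes tested were called and 12.9% were lower. It was largest for *Nid1* (−1.50 ± 0.22, adjusted p = 0.00126), followed by *Col4a5* (−1.42 ± 0.18, 7.98e-04), *Col4a2* (−1.41 ± 0.21, 0.00139) and *Col4a1* (−1.28 ± 0.21, 0.00234). *Nid2* (−1.19 ± 0.21, 0.00305), *Col4a6* (−1.05 ± 0.32, 0.0372) and *Lamb1* (−0.95 ± 0.17, 0.00324) also passed. These genes thus changed further downwards from day 3 to day 6 with the *siOct4* label than in *siNcor1*, and for *Nid1* and *Lamb1* the day changes had opposite signs. Members with a positive call numbered 0 by limma (7.77% of all genes), at an unadjusted p under 0.05 and by voom. *Lama5* missed (−0.78 ± 0.27, adjusted p = 0.0600), as did *Lamc1* (−0.39 ± 0.18, 0.150) and *Lama1* (0.25 ± 0.22, 0.458). The median over the 10 was −1.12, against 0.012 over all genes tested. *Col4a6* was lost without any 1 library other than *siOct4* day 6 replicate 2 (adjusted p between 0.0562 and 0.145), without the trend (0.0734) and with no filter (0.0512). *Lama5* passed without *siNcor1* day 3 replicate 1 (0.0466) or *siOct4* day 6 replicate 1 (0.00505). The comparisons above share libraries, since each group enters a comparison of days and a comparison of knockdowns.

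Epithelial genes were not shifted one way by the same interaction, with 9 of 33 higher, 7 lower and a median of 0.10. *Cdh1* (1.34 ± 0.19, adjusted p = 0.00117), *Epcam* (1.34 ± 0.37, 0.0264), *Esrp1* (2.00 ± 0.37, 0.00357) and *Krt8* (0.75 ± 0.22, 0.0331) gained more in the libraries labelled *siOct4*, and *Krt18* (−3.24 ± 0.28, 2.40e-04) gained less. *Cldn4* was at −1.50 ± 0.42 (0.0277). The *siOct4* day 3 libraries held 2 and 1 reads of *Cldn4* and 5 and 5 of *Esrp1*. The size of both values thus depends on the constant in the log2 values. *Grhl2* did not pass (−0.36 ± 0.58, 0.698). Fibroblast markers were lower for 6 of 8, with a median of −1.24.

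Ratios between related members within a library do not depend on how the libraries are scaled. For each of 5 pairs, the 4 libraries of day 6 were set against the 4 of day 3, both knockdowns together. The exact two-sided permutation test had a smallest p of 0.0286, with Benjamini-Hochberg adjustment over the 5. Day labels were permuted over all 8 libraries regardless of knockdown, so libraries of both knockdowns were treated as exchangeable. An exact p of 0.0286 is thus the lowest this design can give, and it does not take the knockdown into account. *Nid2* relative to *Nid1* fell most. Its log2 ratio was −1.73 and −1.79 in *siNcor1* and −2.07 and −2.24 in *siOct4* at day 3, and −3.61, −3.63, −3.45 and −3.96 at day 6, with no overlap and a change of −1.70 (exact permutation p = 0.0286, adjusted p = 0.0476, n = 4 and 4). The ratio was lower at day 6 in both knockdowns, although *Nid1* itself rose in *siNcor1* and fell in *siOct4*.

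*Lama1* relative to *Lama5* went from −0.52, 0.16, −0.51 and −0.41 at day 3 to −1.69 and −1.94 in *siNcor1* and −1.30 and −0.83 in *siOct4* at day 6, a change of −1.12 (exact permutation p = 0.0286, adjusted p = 0.0476, n = 4 and 4). Within *siNcor1* the change was −1.64 and within *siOct4* −0.61. The laminin α balance thus lay further towards *Lama5* at day 6 in the libraries of both knockdowns. The test pooled the knockdowns, and the change within each was not tested. *Col4a2* relative to *Col4a1* moved little but without overlap, between −0.28 and −0.23 at day 3 and between −0.54 and −0.37 at day 6 (change −0.19, exact permutation p = 0.0286, adjusted p = 0.0476, n = 4 and 4). *Col4a6* relative to *Col4a5* stayed between −3.79 and −3.16 in all libraries, and the days overlapped (−0.20, exact permutation p = 0.229, adjusted p = 0.286, n = 4 and 4). *Lamb1* relative to *Lamc1* was 0.053 higher (exact permutation p = 0.657, n = 4 and 4), with changes of opposite sign in the knockdowns: 0.34 in *siNcor1* and −0.23 in *siOct4*, which were not tested against each other.

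**Figure D5:**
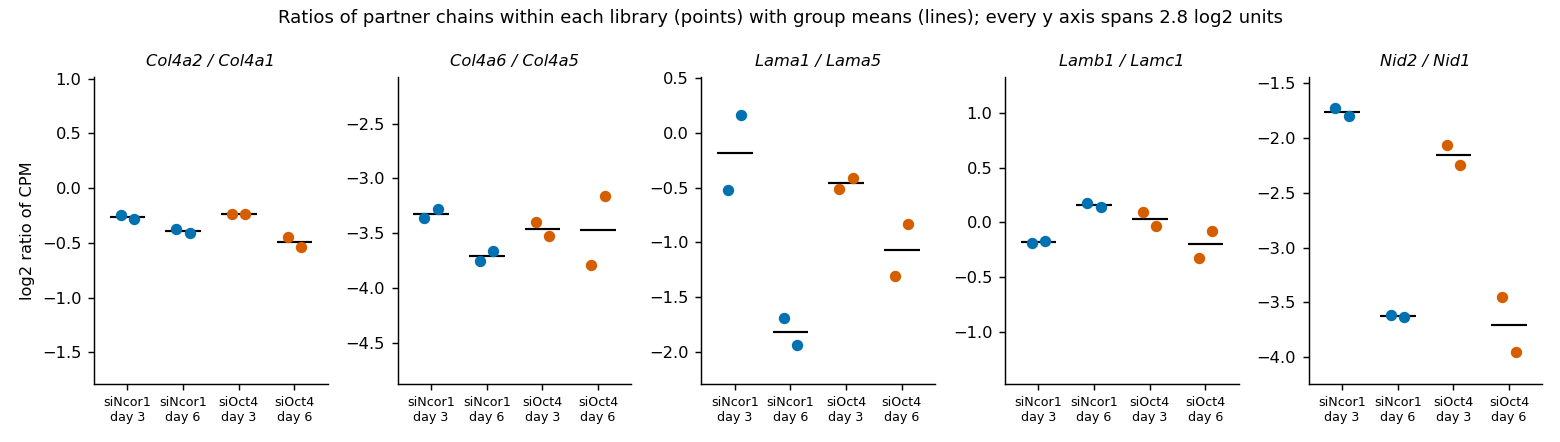
Log2 ratio of CPM of 5 pairs of members (chains of a trimer, alternative laminin α chains or nidogens) in each library. A line marks the mean of the 2 libraries of a group, and every y axis spans the same number of log2 units. *Nid2* to *Nid1* and *Lama1* to *Lama5* are lower at day 6 in both knockdowns, and *Col4a2* to *Col4a1* moves within a narrow band.

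The likeness of 2 genes over the libraries was measured as the root mean square difference of their log2 values, each centred on its mean over the 8 libraries, against each of 13865 other genes. *Col4a1* ranked 2 for *Col4a2*, and *Col4a2* ranked 6 for *Col4a1*, with a difference of 0.108. *Col4a5* ranked 42 for *Col4a6*, and *Col4a6* ranked 106 for *Col4a5* (0.213). The head-to-head partners were thus among the closest genes to each other in the table. *Lamc1* ranked 537 for *Lamb1*, and *Lamb1* ranked 1048 for *Lamc1* (0.164). *Lama5* ranked 11265 for *Lama1*, with a difference of 0.664 where the median over the other genes was 0.408. *Lama1* ranked 8830 for *Lama5*, where the median was 0.607. *Nid1* ranked 5280 for *Nid2*, with 0.875 against a median of 0.958, but *Nid2* ranked 12634 for *Nid1*, where the median was 0.504. The points share the libraries, their depth and their scaling, so these ranks are a description over 8 libraries in 4 groups.

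The 3 genes closest to *Col4a1* were *Gfpt2* (0.0782), *Fam19a5* (0.0888) and *Ldlrad4* (0.0927). *Gfpt2* encodes an enzyme of hexosamine synthesis. Closest to *Lama1* were *Phf14* (0.125), *Xk* (0.126) and *Gm44207* (0.128), and closest to *Lama5* were *Rap1gap* (0.0847), *Mdk* (0.0947) and *Arhgap27* (0.115). *Mdk* encodes midkine, a heparin-binding growth factor, and *Rap1gap* an inactivator of the small GTPase RAP1. Closest to *Nid1* were *Tmem119* (0.0953), *Lrp11* (0.106) and *Mamdc2* (0.114).

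The other components of basement membranes, 28 genes of which 25 were tested (*Col4a3*, *Lamb3* and *Lamc3* were not), changed in both directions. In *siNcor1* 6 rose and 9 fell from day 3 to day 6, beside 13.8% and 20.9% of all genes tested, with *Frem2* (10.3-fold) and *Col18a1* (5.79-fold), the source of endostatin, higher and *Hmcn1* (7.79-fold) and *Lama2* (3.71-fold), the laminin α chain of muscle, lower. In the libraries labelled *siOct4* 4 rose and 15 fell, beside 22.2% and 30.5% of all genes. *Col18a1* (4.64-fold) and *Frem2* (4.52-fold) rose there too, and *Hmcn1* (12.7-fold) and *Smoc2* (9.73-fold) fell most. Perlecan (*Hspg2*), the large heparan sulfate proteoglycan of basement membranes, did not pass in *siNcor1* (−0.29 ± 0.20, adjusted p = 0.277) and fell in *siOct4* (−1.36 ± 0.20, 1.47e-04). *Lama4* (−0.15 and −1.16) and *Lamb2* (−0.17 and −1.09) likewise did not pass in *siNcor1* and fell in *siOct4*. Agrin (*Agrn*), which is known from the neuromuscular junction, rose in *siNcor1* (0.62 ± 0.14, 0.00543) and did not pass in *siOct4* (0.057 ± 0.14, 0.752). The interaction of *Agrn* missed the threshold by limma (−0.56 ± 0.20, adjusted p = 0.0628).

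Between the knockdowns, 2 of the 25 were higher (*Col7a1*, the anchoring fibril collagen, 2.20-fold, and *Fbln2*, 1.71-fold) and 1 lower (*Papln*, 3.08-fold) at day 3 in the libraries labelled *siOct4*. At day 6, 1 was higher, *Col4a4* (2.82-fold), and 15 were lower, *Frem2* by 3.31-fold. *Col4a4* had 6 and 4 reads in *siNcor1* and 11 and 20 in *siOct4* at that day. The size of its fold thus depends on the constant in the log2 values. *Lamb2* (−0.97 ± 0.13, adjusted p = 4.88e-04), *Lama4* (−0.93 ± 0.12, 4.84e-04), *Lama2* (−0.79 ± 0.23, 0.0209) and *Hspg2* (−0.79 ± 0.20, 0.0111) were also among the lower genes. The interaction was higher for 2 and lower for 12 of 25, beside 7.77% and 12.9% of all genes tested. The shares of all genes higher and lower were 0.375% and 0.692% at day 3 and 12.1% and 18.6% at day 6. The medians were −0.27 and −1.16 for the days in *siNcor1* and *siOct4*, 0.034 and −0.72 for the knockdowns at day 3 and day 6, and −0.71 for the interaction.

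Receptors of the basement membrane (14 genes, 13 tested, without *Itga2*) rose for 4 and fell for 1 in *siNcor1*, beside 13.8% and 20.9% of all genes tested. In *siOct4* they rose for 2 and fell for 8, beside 22.2% and 30.5%. *Bcam*, a receptor of laminin α5, rose with its ligand chain *Lama5* in *siNcor1* (2.12-fold, adjusted p = 0.00935), and the integrin chains *Itga7*, a laminin receptor subunit, and *Itga1*, of a collagen receptor, were 1.51-fold higher and 1.66-fold lower. In *siOct4* *Itgb4*, the hemidesmosome integrin, rose 2.90-fold, while *Itga1* (5.15-fold) and the collagen receptor *Ddr1* (2.74-fold) fell most. Between the knockdowns 1 receptor, *Itgb4* (2.90-fold lower), passed at day 3, with 0 higher (2 at an unadjusted p under 0.05, 0 by voom). At day 6 there were 7 lower, of which *Bcam* (3.19-fold) and *Itga1* (2.25-fold) differed most, and 0 higher by limma, at an unadjusted p under 0.05 or by voom. Of all genes tested, 0.692% were lower at day 3, and 12.1% were higher and 18.6% lower at day 6. Dystroglycan (*Dag1*) was 1.62-fold lower at day 6 (adjusted p = 0.00161), did not change past the threshold in *siNcor1* (−0.039 ± 0.12, 0.823) and fell in *siOct4* (−0.86 ± 0.12, 9.80e-05). The interaction was higher for 1 and lower for 8 of 13, beside 7.77% and 12.9% of all genes tested.

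Genes that assemble, modify or degrade collagen IV and laminin (20 genes, 19 tested, without *Mmp9*) rose for 4 and fell for 4 in *siNcor1*. That is near the 13.8% and 20.9% of all genes tested. In *siOct4* they rose for 1 and fell for 14, beside 22.2% and 30.5%. The matrix metalloproteinase genes *Mmp2* (2.36-fold) and *Mmp14* (1.44-fold) led the increases in *siNcor1*, and *Timp3*, a metalloproteinase inhibitor (2.41-fold), and *Loxl2*, a lysyl oxidase that cross-links collagen IV (2.07-fold), the decreases. *Timp3* (8.17-fold) and *Loxl2* (6.24-fold) also fell most in *siOct4*, where *Ppib*, a proline isomerase of the endoplasmic reticulum, rose (1.67-fold). Between the knockdowns 0 of 19 passed at day 3 by limma, where 11 were higher at an unadjusted p under 0.05 and 1 by voom, and 0 were lower by either. At day 6, 10 were lower, led by *Timp2* (2.34-fold) and *Timp3* (2.29-fold), and 0 higher by limma (1 at an unadjusted p under 0.05, 0 by voom). The interaction was lower for 12 of 19 and higher for 0 (1 and 0 by the same other counts). Of all genes tested, 18.6% were lower and 12.1% higher at day 6, and 12.9% and 7.77% for the interaction.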

How the data were processed

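RNA-seq was measured in 8 libraries (2 knockdowns, day 3 and day 6, 2 replicates). Per the paper's methods and the submitters' processing notes, paired reads of 43 bp were aligned to mm10 (GRCm38) with STAR 2.5.2b, after ribosomal RNA depletion from 200 ng of total RNA, and the authors deposited log2 values, log2-cpm made with edgeR 3.20.9. The read counter is not given in the sources used here. The members and the gene lists were chosen with earlier results of these data known.

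Whole reads were recovered from the deposited values by taking off the constant added before the logarithm (100% whole within 0.1 read). They gave CPM, depth and RPKM (GENCODE M21 exons, 18969 genes matched). The precision rests on 2 libraries a group, and 3 reads correspond to 0.174 to 0.380 CPM. Replicates of a group were no copies of 1 library (chi-square over its degrees of freedom 8.44 to 18.7).

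limma 3.58.1 (R 4.3.3) was fitted to the log2 values of all 4 groups together, with a mean-variance trend, on the genes that averaged 1 CPM or more. Calls were at an adjusted p of 0.05 (Benjamini-Hochberg over 13866 genes). Pair ratios used exact permutation tests (scipy 1.17.1). Genes were named by a fixed rule: all members, 7 epithelial genes, *Lama4*, *Lama2*, *Lamb2*, *Hspg2*, *Agrn*, *Dag1*, and up to 2 called genes in each direction from each list (other components, receptors, assembly and turnover, epithelial, and markers of fibroblast, endoderm, endothelium, muscle and macrophage). A gene that this rule named is not reported here. Markers without reads were added after their values were seen. Alternatives were no trend, 3 other scalings, no filter or 10 CPM, pseudocounts of 0.1 and 1, the replicate block, only the groups compared, voom on the recovered reads, and each library left out.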

Additional observations from a re-analysis of the deposited data

Results flagged for a closer look

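For 7 genes the difference between the knockdowns changed from day 3 to day 6 by a test of the change itself (limma, interaction of all 4 groups, adjusted p under the threshold over 13866 genes). The change was −1.28 for *Col4a1*, −1.41 for *Col4a2*, −1.42 for *Col4a5*, −1.05 for *Col4a6*, −0.95 for *Lamb1*, −1.50 for *Nid1* and −1.19 for *Nid2* on the log2 scale, where 12.9% of all genes tested were lower. The summed fibroblast markers moved the same way, from 8724 to 10278 CPM at day 3 to 2437 to 2587 at day 6 in the libraries labelled *siOct4*, against 6179 to 6306 and 4386 to 4757 in *siNcor1*. *Col1a1* had the most reads of the 8 in every library. Over the days in *siNcor1*, 4 of the 8 rose and 2 fell. The part of these markers in the change was not tested. Groups of 2 libraries are too small for a check of single outlying libraries.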

How the results depend on the processing

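Leaving out 1 library at a time gave 0 to 3 members called between the knockdowns at day 3 (1 with all libraries), 5 to 8 at day 6 (8), 4 to 7 between the days in *siNcor1* (6), 8 to 9 in *siOct4* (8) and 6 to 7 for the interaction (7). At day 3 the count was 0 without the trend, with no filter, with a mean of at least 10 CPM, with a pseudocount of 1 and with only the groups compared. With the replicate number as a block it was 2, since *Col4a2* passed (adjusted p = 0.0482). The block also brought in *Lamc1* at day 6 (0.0480) and *Lama5* for the interaction (0.0342), and changed no other call of a member. The numbers were not taken as pairs, since libraries with 1 number deviated from their group means with correlations from −0.0395 to 0.281, over 0.1 for 3 of 6 pairs of groups. Under the block the ratios of *Col4a2* to *Col4a1* (−0.19), *Lama1* to *Lama5* (−1.12) and *Nid2* to *Nid1* (−1.70) had an adjusted p of 0.208, but that test cannot go below 0.125 before adjustment, so it says nothing about them.

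Values that changed sign were *Lamc1* between the knockdowns at day 3 (−0.0059 with totals without *Gm26917*; −0.090 to 0.16 with 1 library left out) and, with 1 library left out, *Lama5* at day 3 (−0.28 to 0.15), *Lama1* at day 6 (−0.27 to 0.075) and *Lama5* over the days in *siOct4* (−0.034 to 0.54). *Lamb1* to *Lamc1* ran from −0.012 to 0.15 with 1 library left out. In *siNcor1* alone the ratio changes were −0.13 (*Col4a2* to *Col4a1*), −1.64 (*Lama1* to *Lama5*) and 0.34 (*Lamb1* to *Lamc1*), and in *siOct4* alone −0.26, −0.61 and −0.23. Of 540 member values under the alternatives other than leaving out a library, 521 kept direction and side of the threshold, and with 1 library left out 360 of 400 did. The cause of these changes was not tested.

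Over all genes, calls ran from 43 to 222 at day 3 (148 as reported; 3 to 375 with 1 library left out), 3060 to 4700 at day 6 (4251; 1398 to 4669), 3827 to 6071 and 5385 to 7937 for the days (4819 and 7312; 2360 to 5954 and 5397 to 7374) and 1925 to 3395 for the interaction (2867; 1009 to 3667). The deposited values were scaled to effective library sizes, 0.951 to 1.051 of the read totals, which the totals without *Gm26917* do not use. With those totals, 52.6% of the calls between the days in *siOct4* were higher, against 42.1% as reported. A planned edgeR test on the recovered reads was not run, since the deposited unit is log2. *Col4a6* had 32 to 288 reads a library and is the member that depth limits most.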
